A study of Mus musculus with 12 samples.

Results

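The genes described here encode nuclear-coded subunits of the last 3 complexes of mitochondrial oxidative phosphorylation. They were taken by symbol: every gene whose symbol in the array annotation begins with Uqcr (complex III), with Cox followed by a digit from 4 to 8 and a letter (complex IV), or with Atp5 (complex V), and which has a probe set that carries its symbol alone. This gave 41 of the 12394 genes with such a probe set, of which 8 belong to complex III, 16 to complex IV and 17 to complex V. Together they had 75 probe sets. Each gene was followed through 1 of them, the probe set with the highest mean log2 signal over the 12 arrays. Of the 41 genes, 40 lay among the 13575 probe sets tested, and the one left out by the signal filter was Cox6b2, the testis form of an oxidase subunit, at a mean signal of about 5. No level of one probe set is set against that of another, because probes differ in how strongly they bind.

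RNA came from quadriceps, a mostly fast-twitch thigh muscle, of C57Bl/6J mice. Sedentary mice were given vehicle (the vehicle group) or GW1516 (the GW group), a synthetic activator of PPARδ, which is a nuclear receptor that switches on genes in response to fatty acids. The dose was 5 mg/kg/day for 4 weeks. Treadmill-trained mice received vehicle (the exercise group) or the same drug (the combination group) over 4 weeks. Each group had 3 arrays and each array held pooled RNA of 3 mice, which makes 9 mice per group, and every p-value rests on the spread between pools. The strain, the muscle and flash freezing were common to all groups, and the labels name no altered allele and state no age. With whole muscle, fewer fibres of one type and less RNA per fibre cannot be told apart.

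Complex III (cytochrome bc1) takes electrons from ubiquinol and passes them to cytochrome c, complex IV (cytochrome c oxidase) hands them to oxygen, and complex V (ATP synthase) uses the proton gradient built on the way to make ATP. Each complex joins nuclear-coded subunits to a few that the mitochondrial genome encodes, and endurance training is known to raise the content of all of them in muscle. Cytochrome c oxidase also has paired isoforms: Cox6a2, Cox7a1 and Cox8b are the forms of heart and skeletal muscle, while Cox6a1, Cox7a2 and Cox8a are made in most tissues. PPARδ acts on genes of fatty acid use, and respiratory chain genes are commonly described as targets of the factors NRF1, GABP, ERRα and YY1 with their coactivator PGC-1α.

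The promoters of 3 isoform genes give an example of the sequences upstream of this set. In the RefSeq table of mouse promoters (build GRCm38.p6, 250 bases before and 50 after the annotated start), 31 of the 41 genes had an entry, with 34 promoters in all. Exact matches were sought on both strands for CCGGAAG of the GABP and other ETS factors, for GCATGCG, the core of the NRF1 site, for AAGGTCA, the site of ERR receptors, for AAGATGG of YY1, for GGGCGG (the GC box), for CAGCTG (an E-box bound by MyoD) and for TATAAA, the TATA box. The ubiquitous forms Cox6a1 and Cox8a and the muscle form Cox8b are printed because the values of the combination group turn on them. Each is given 5′ to 3′ on its own strand, from 250 bases before to 10 bases after the annotated start, with matches to these letters in capitals. Cox6a1 is at chr5:115348949-115349208, Cox8a at chr19:7217607-7217866 and Cox8b at chr7:140900437-140900696, all on the minus strand.
Cox6a1: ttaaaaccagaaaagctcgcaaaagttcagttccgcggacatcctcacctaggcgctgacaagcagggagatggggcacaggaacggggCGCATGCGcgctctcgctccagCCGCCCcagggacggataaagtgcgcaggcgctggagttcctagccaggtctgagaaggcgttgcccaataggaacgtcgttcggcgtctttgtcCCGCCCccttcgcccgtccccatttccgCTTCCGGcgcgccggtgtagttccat
Cox8a: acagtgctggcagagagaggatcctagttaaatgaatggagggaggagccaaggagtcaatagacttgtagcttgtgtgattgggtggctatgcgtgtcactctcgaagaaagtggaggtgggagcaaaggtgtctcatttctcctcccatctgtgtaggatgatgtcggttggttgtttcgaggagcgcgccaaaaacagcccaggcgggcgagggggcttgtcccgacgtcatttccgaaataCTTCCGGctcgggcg
Cox8b: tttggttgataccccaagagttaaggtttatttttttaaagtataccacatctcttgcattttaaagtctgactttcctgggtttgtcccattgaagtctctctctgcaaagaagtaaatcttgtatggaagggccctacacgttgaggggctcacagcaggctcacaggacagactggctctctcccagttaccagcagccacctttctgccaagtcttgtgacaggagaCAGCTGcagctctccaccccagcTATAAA

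In Cox6a1, an ETS match began 16 bases before the start, overlapping NRF1 matches on the 2 strands lay 160 and 161 bases before it, and GC boxes lay 139 and 44 bases before it. Cox8a held an ETS match 5 bases before its start. Cox8b held none of these, and had instead the E-box 19 bases before the start and the TATA letters just after it. Over all 34 promoters of the set, the ETS letters were present in 11 (32.4%, against 8.86% of all 32851 promoters in the table) and the NRF1 core in 7 (20.6% against 3.58%). The ERR site was found in 4 promoters (11.8% against 4.72%), and these 4 were of complex V genes, Atp5e, Atp5g3, Atp5k and Atp5l. YY1 letters were in 4 (11.8% against 6.34%). The GC box was about as frequent as elsewhere (32.4% against 35.7%), and the TATA box (8.82% against 13.6%) and the E-box (5.88% against 16.3%) were less frequent than in the whole table. At least 1 of the first 4 motifs was in 50% of the set and in 21.4% of all promoters. The median GC content was 56.2% in the set and 52.7% overall. Of the other isoform genes, the muscle form Cox7a1 held none of the 7 motifs, its partner Cox7a2 held a GC box, and Cox6a2 had no entry. These are matches of letters, and binding was not measured.

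Most members were bright: 36 of 41 genes had a mean signal over 1000, and 38 lay on every array above 23.5, the 95th percentile of 27 bacterial control probe sets. The dim ones were Cox4i2 (about 34), Cox7c (about 30), Cox8c (about 88) and Cox6b2, whose values are open to background. Array medians lay between 48.4 and 57.2, and 9 skeletal muscle fibre markers summed to between 124000 and 159000 per array, while 3 heart markers summed to at most 69. RNA integrity, read as the ratio of 3′ to 5′ actin signal, spanned 0.838 to 1.104 in vehicle, 0.763 to 0.816 in exercise, 0.801 to 0.916 in GW and 0.803 to 0.841 in the combination. The same ratio for Gapdh spanned 0.890 to 0.906, 0.896 to 0.940, 0.821 to 0.909 and 0.877 to 0.914 in the same order. These Gapdh ranges overlapped between all groups. Combination arrays 2 and 3 stood apart in fat cell markers. The summed signal of 5 fat cell markers (of 7 listed, the others having no probe set of their own) was 4640 and 7070 there, against 1740 on combination array 1 and between 1760 and 2550 in the other groups. Among genes known to respond to the drug, Acadl and Slc27a1, both of fatty acid use, rose under GW by 1.34 and 1.53 on the log2 scale (limma, adjusted p = 1.74e-05 and 1.81e-04).

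**Figure D1:**
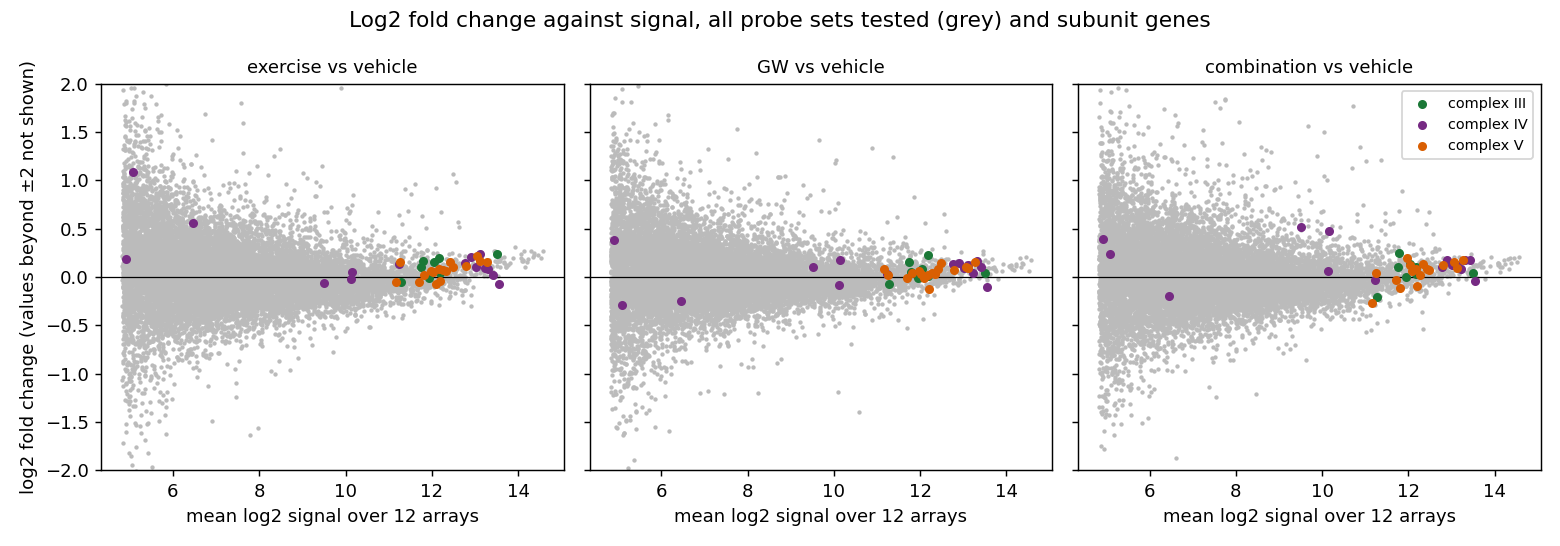
Log2 fold change against vehicle (vertical axis) by mean log2 signal over the 12 arrays (horizontal axis) for the 13575 probe sets tested (grey) and the 40 subunit genes (coloured by complex), in the exercise, GW and combination groups. Most subunit genes lie at the bright end, where changes of all probe sets are small and lie slightly above 0.

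In trained mice without the drug, subunit genes of all 3 complexes had slightly higher signals than in vehicle, and none passed the test. The median log2 fold change was 0.13 for complex III, 0.099 for complex IV and 0.068 for complex V, and 0.0079 over all probe sets tested. Of the 40 genes, 31 had a positive value and 9 a negative one, while 51.2% of all probe sets were positive. Bright probe sets of other genes leaned the same way: 367 with a mean signal of at least 3120, the lower quartile of the members, had a median of 0.045, with 64.9% positive. In limma's test with Benjamini-Hochberg adjustment, 0 members were called at an adjusted p of 0.05, where 0.0147% of all probe sets were. At an unadjusted p of 0.05, 8 members were higher and 0 lower, against 5.69% and 4.74% of all. The 95% interval of 37 of the 40 genes stayed within a 1.5-fold change in either direction.

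Beyond the dim genes, the largest exercise values were those of Cox5a, Uqcrb, Atp5g3 and Cox4i1. Cox5a, a matrix-facing oxidase subunit, had signals of 7940, 8390 and 8250 in vehicle and of 8690, 10100 and 10200 in exercise. The arrays of both groups did not overlap, and the log2 fold change was 0.23 ± 0.074 (SE, adjusted p = 0.313 by limma, the lowest of the set). Its other probe sets gave 0.11 and -0.086. Cox4i1, the main form of the regulatory subunit 4, had 6670, 7330 and 6940 in vehicle and 8030, 8710 and 7520 in exercise, again without overlap (0.21 ± 0.090). Uqcrb, which binds ubiquinone in complex III, gave 10600, 10100 and 12400 in vehicle and 13500, 12500 and 12700 in exercise (0.23 ± 0.10), while its second probe set gave 0.032 ± 0.10. Quantile normalization took Uqcrb to 0.071 and Cox5a to 0.12. The core proteins Uqcrc1 and Uqcrc2 stood at 0.20 ± 0.097 and 0.16 ± 0.073, and the Rieske iron-sulfur protein Uqcrfs1 at 0.15.

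In ATP synthase, the main chains of the catalytic head had positive values. Atp5a1 (the α chain) was at 8430, 8330 and 8350 in vehicle and 8890, 9550 and 9760 in exercise, a log2 difference of 0.17 ± 0.063 with no overlap. Its other probe sets gave 0.080 ± 0.063 and -0.060 ± 0.28, and quantile normalization took the first value to 0.022. The catalytic β chain Atp5b was at 0.15 ± 0.069 and the central stalk chain Atp5c1 at 0.11, each without overlap. The 3 genes that encode the same c-ring protein differed in their values, with 0.16 for Atp5g1, 0.052 for Atp5g2 and 0.21 ± 0.071 for Atp5g3. Atp5h, a chain of the peripheral stalk, had the lowest value in the complex at -0.072. Over all members, the 3 exercise arrays lay above the 3 vehicle arrays for 13 genes (2 of complex III, 6 of complex IV, 5 of complex V) and below them for 0, where 8.83% of all probe sets lay above and 8.56% below. Beside this, all 9 muscle fibre markers had positive values (median 0.20), among them creatine kinase Ckm at 0.20 and skeletal actin Acta1 at 0.27, and 0 of them was called, while 9 of 9 had an unadjusted p under 0.05. Their summed signal lay between 127000 and 132000 in vehicle and between 151000 and 155000 in exercise. Slow fibre markers summed to between 3770 and 6230 in vehicle and between 8570 and 10900 in exercise. Neither range overlapped, and nor did the actin ratio or the array medians (48.4 to 53.0 in vehicle, 54.0 to 57.2 in exercise). The Gapdh ratio did overlap. The part of these differences in the result was not tested.

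**Figure D2:**
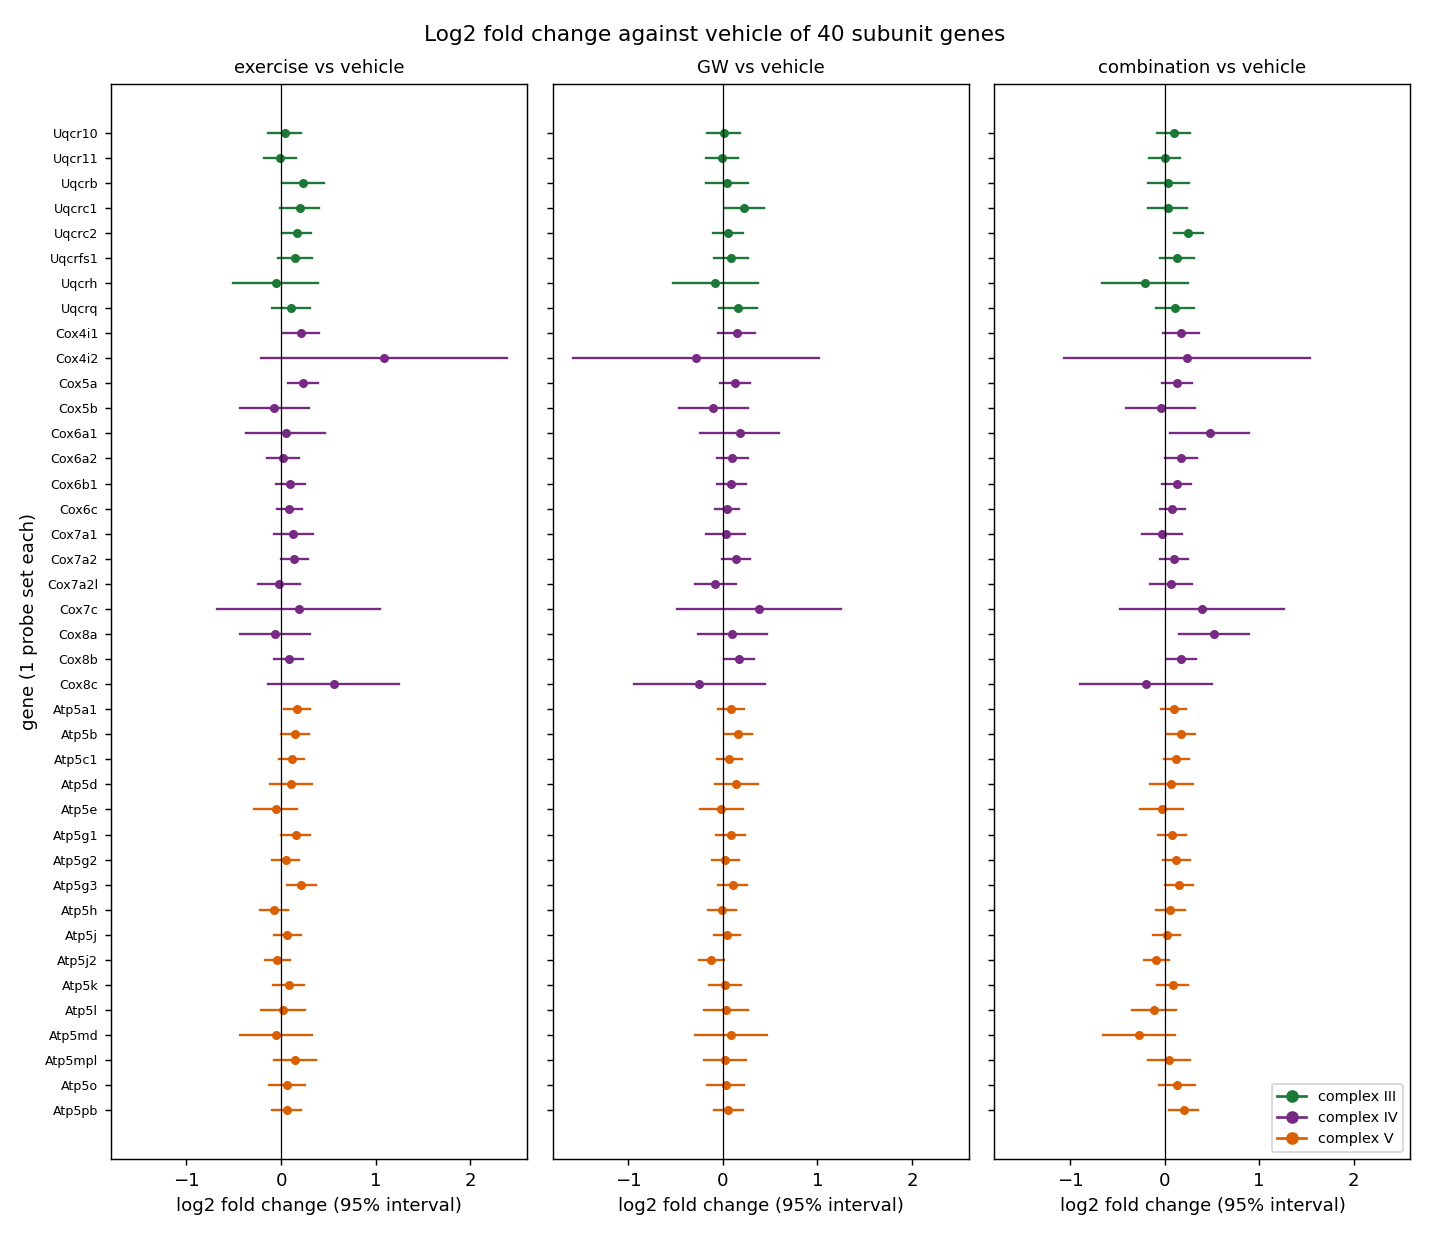
Log2 fold change against vehicle with its 95% interval (horizontal axis) for each of the 40 subunit genes tested (vertical axis, coloured by complex), in the exercise, GW and combination groups, 3 arrays each. Most points lie slightly to the right of 0, and the wide intervals belong to the dim genes Cox4i2, Cox7c and Cox8c.

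With the drug alone, no member passed the test either. Under GW the medians were 0.049 for complex III, 0.10 for complex IV and 0.045 for complex V, against -0.00063 for all probe sets and 0.039 for the bright probe sets of other genes. Again 31 members were positive and 9 negative, against 49.8% positive of all and 64.9% of the other bright probe sets. By limma 0 members were called (0.0958% of all probe sets), and 3 were higher and 0 lower at an unadjusted p of 0.05 (3.68% and 2.75% of all). These 3 were Uqcrc1 (0.23 ± 0.097), the muscle oxidase form Cox8b (0.17 ± 0.074) and Atp5b (0.16 ± 0.069), and the lowest adjusted p was 0.757. Uqcrc1 read 4460, 4240 and 4150 in vehicle and 5640, 4480 and 4970 under GW, so the groups did not overlap, and without GW array 1 the value was 0.14. Arrays did not overlap for 5 members upward and 1 downward, where 5.54% and 5.47% of all probe sets did. The downward one was Atp5j2, a small membrane subunit of the synthase, with 4850, 5150 and 4760 in vehicle and 4470, 4510 and 4590 under GW (-0.12). Its second probe set read 3930, 3730 and 3330 in vehicle and 3500, 3780 and 3610 under GW, which overlapped. The interval stayed within 1.5-fold for 36 of the 40 genes. By comparison, the fatty acid genes Acadl, Ucp3 and Slc27a1 were called higher, 3 of 4 in the reference list, whose median was 1.29. The list was known from earlier work with these data to respond.

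With training and drug together, the oxidase had the highest median of the 3 complexes: 0.13, against 0.069 for complex III and 0.078 for complex V. The median over all probe sets was -0.0027, and over the other bright ones 0.040. As before, 31 members were positive and 9 negative, against 49.6% positive of all and 65.7% of the other bright probe sets. By limma 0 members were called (0.155% of all probe sets), and 8 were higher and 0 lower at an unadjusted p of 0.05 (5.48% and 4.50% of all). Arrays lay apart upward for 14 members and downward for 1, where 7.94% and 8.88% of all probe sets did. The downward one was again the chosen probe set of Atp5j2, while its second probe set (3830, 3870 and 3710 in the combination) overlapped vehicle. The 14 held 2 genes of complex III, 6 of complex IV and 6 of complex V. The interval stayed within 1.5-fold for 33 genes. Muscle fibre markers moved beside the members here too: 9 of 9 had positive values in the combination (median 0.14) and under GW (0.13), with 0 called, and their summed signal lay between 135000 and 153000 in the combination, above that of vehicle. Their part in the result was not tested. The 3 comparisons against vehicle share the vehicle arrays, so their likeness is not independent.

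Uqcrc2, a core protein of complex III, had the lowest adjusted p of the set against vehicle (0.252). It read 3230, 3480 and 3060 in vehicle, 3360, 3790 and 3800 in exercise, 3440, 3280 and 3420 under GW and 3900, 3930 and 3790 in the combination. The combination arrays lay above those of vehicle and of GW, with log2 differences of 0.25 ± 0.073 and 0.20 ± 0.073. Its second probe set gave 0.29 against vehicle but repeated neither separation of arrays. It read 2220, 2360 and 2980 in vehicle, 2850, 3440 and 3040 under GW and 3010, 3410 and 2800 in the combination. The combination thus overlapped vehicle and GW there. Averaged over drug states, training gave 0.18 ± 0.052 for the chosen probe set of Uqcrc2 (adjusted p = 0.345 by limma), and from 0.12 to 0.21 over the other settings. The peripheral stalk chain Atp5pb read 3960, 3840 and 3630 in vehicle and 4430, 4090 and 4620 in the combination (0.20 ± 0.073). Its second probe set did not repeat this, with 3080, 3040 and 2870 in vehicle and 3230, 2810 and 2740 in the combination. Atp5b again had no overlap (0.17 ± 0.069). At the low end were Uqcrh, the hinge protein of complex III, at -0.21 and the accessory synthase subunit Atp5md at -0.27. Both had a wide spread within vehicle, from 1960 to 3200 for Uqcrh and from 1810 to 2860 for Atp5md, and their groups overlapped.

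No remaining subunit passed the test. In complex III, the small subunits Uqcr10, Uqcr11 and Uqcrq gave 0.038, -0.013 and 0.11 in exercise, 0.0098, -0.0091 and 0.16 under GW and 0.098, -0.00071 and 0.11 in the combination. In complex IV, the zinc-binding subunit Cox5b gave -0.071, -0.10 and -0.042 in exercise, GW and combination. These values are those of its chosen probe set. That probe set varied between arrays of a group, from 9120 to 13600 in exercise and from 8550 to 13800 under GW. Another bright probe set of Cox5b went the other way. It read 8260, 8320 and 8610 in vehicle and 9380, 9670 and 9120 in exercise. Under GW it read 9640, 8200 and 10100, and in the combination 9500, 9900 and 9610. Its exercise and combination arrays lay above those of vehicle, and its GW arrays overlapped them. The remaining probe sets of Cox5b overlapped vehicle in each group. Cox6b1, the partner of the testis form Cox6b2, gave 0.099, 0.089 and 0.13 in exercise, GW and combination. Cox6c gave 0.089, 0.044 and 0.082. The dim Cox7c gave 0.19, 0.38 and 0.39, each with an SE of 0.41, and its combination arrays (30.3, 33.4 and 37.1) lay above those of vehicle (29.0, 22.9 and 24.9). In complex V, the δ chain Atp5d gave 0.10, 0.14 and 0.070 and the ε chain Atp5e, the smallest of the head, gave -0.057, -0.016 and -0.032. Of the peripheral stalk and membrane subunits, Atp5j gave 0.068, 0.045 and 0.022, Atp5k gave 0.081, 0.022 and 0.083, and Atp5l gave 0.020, 0.037 and -0.11. Atp5mpl, a small protein bound to the synthase, gave 0.15, 0.023 and 0.041.

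Among the chosen probe sets of oxidase genes well above background, the largest differences from vehicle were in the ubiquitous forms Cox6a1 and Cox8a, in the combination group. Cox6a1 read 1150, 919 and 966 in vehicle, 1020, 1020 and 1090 in exercise, 1380, 941 and 1150 under GW and 991, 1390 and 2010 in the combination. Combination arrays 2 and 3 were the highest 2 of the 12, array 1 lay within vehicle, and the difference from vehicle was 0.48 ± 0.20 (adjusted p = 0.465 by limma). Cox8a read 661, 634 and 690 in vehicle, 729, 543 and 640 in exercise, 897, 528 and 751 under GW and 799, 962 and 1110 in the combination. All 3 combination arrays lay above vehicle and above exercise, by 0.52 ± 0.17 and 0.58 ± 0.17 (adjusted p = 0.329 and 0.299), and overlapped GW. Second probe sets gave 0.39 for Cox6a1 and 0.60 for Cox8a against vehicle. That of Cox8a did not repeat the separation from exercise. It read 724, 574 and 649 in exercise and 719, 892 and 1030 in the combination, which overlapped.

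The same arrays were those with the fat cell signal. Adipoq, the fat cell hormone adiponectin, read 270, 1050 and 1470 in the combination and at most 365 elsewhere. Cidec, a lipid droplet protein, read 51.6, 283 and 716 there and at most 112 elsewhere. The brown fat genes Cidea (1.36, 96.1 and 220) and Ucp1 (3.40, 22.0 and 86.6) had the same order within the combination, and the third, Elovl3 (38.4, 29.0 and 56.8), did not. Of the 4 fat markers tested, 4 had positive values against vehicle (median 1.51) and 0 was called. Against combination array 1 alone, a single array for which limma takes the spread of the other groups, the difference from vehicle was -0.024 for Cox6a1 and 0.27 for Cox8a (adjusted p = 0.998 and 0.936). Since the arrays left out were the highest for both genes, lower values there were fixed by the choice. With the mean log2 signal of the 4 markers as a covariate, the differences from vehicle were 0.0039 for Cox6a1 and 0.34 for Cox8a (adjusted p = 0.999 and 0.705 by limma). Without combination array 3 alone, Cox6a1 was at 0.22 and Cox8a at 0.41. High values also occurred where the fat markers were low: GW array 1 read 1380 for Cox6a1 and 897 for Cox8a, with Adipoq at 248. The part of fat cell RNA in either value cannot be told apart from that of the treatment in 3 arrays.

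The muscle partners Cox6a2 and Cox8b had positive values in the combination. Cox6a2 read 10400, 9910 and 10900 in vehicle, 10200, 9720 and 11900 in exercise, 11000, 11200 and 11400 under GW and 11400, 12800 and 11100 in the combination, a difference of 0.18 ± 0.079 for the last against vehicle. Cox8b read 9830, 9660 and 8880 in vehicle and 10300, 10600 and 11000 in the combination (0.17 ± 0.074), without overlap. Both gave 0.13 when the drug effect was averaged over sedentary and trained mice, with arrays of both drug groups above vehicle. That average also sets the combination against exercise, where the arrays of both genes overlapped. In exercise Cox8b read 10100, 10900 and 8970. Quantile normalization took the difference of the combination from vehicle to 0.089 for Cox6a2 and 0.11 for Cox8b. On combination array 1 alone, both were at 0.13 against vehicle, and without combination array 2 Cox6a2 was at 0.11. Cox7a1, the muscle form of the remaining pair, gave -0.029 in the combination and 0.13 in exercise, and its ubiquitous partner Cox7a2 gave 0.098 and 0.14. Whether the members of a pair differed from each other in response was not tested.

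**Figure D3:**
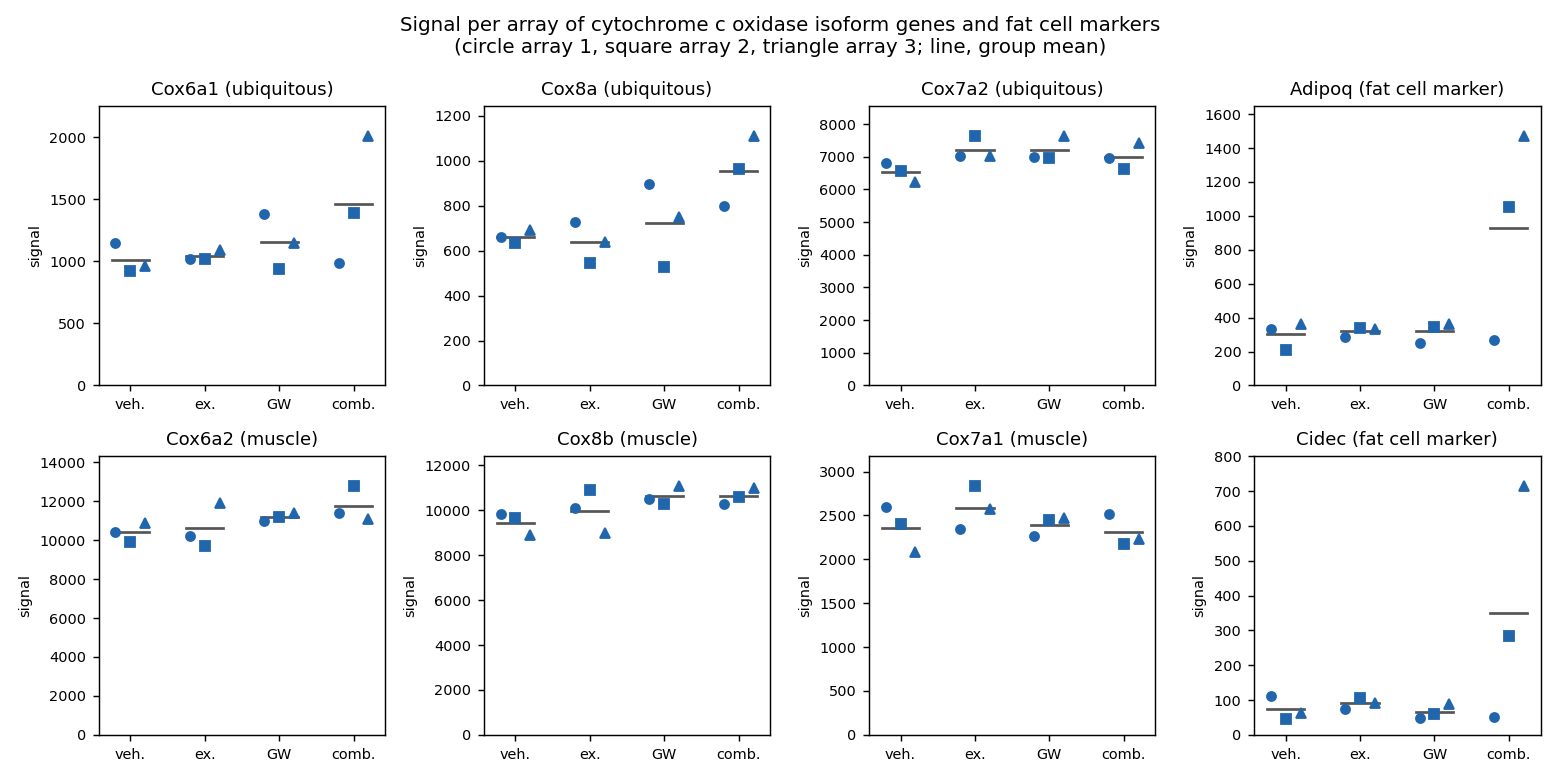
Signal on each array (vertical axis, linear, from 0) in the vehicle, exercise, GW and combination groups (horizontal axis) for 3 ubiquitous oxidase forms (upper row), their muscle partners (lower row) and 2 fat cell markers; points are arrays, marked by array number, and lines are group means. Cox6a1, Adipoq and Cidec are high on combination arrays 2 and 3, while Cox8a is above vehicle on all 3 combination arrays.

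Other oxidase forms were dim or split by probe set. Cox4i2, the form of subunit 4 best known from lung, read 36.7, 33.3 and 18.5 in vehicle and 81.0, 62.1 and 43.2 in exercise, close to background, with a log2 value of 1.09 ± 0.61. Cox8c, a testis form, read 83.9, 80.3 and 95.2 in vehicle, 114, 114 and 157 in exercise and 75.8, 99.1 and 56.5 in the combination. It was the only member lower at an unadjusted p of 0.05 in the combination than in exercise (-0.76 ± 0.33, adjusted p = 0.503). Cox7a2l, a factor of respiratory supercomplexes, had 3 probe sets that differed in exercise. The chosen one gave -0.021 ± 0.10, the others -0.23 ± 0.096 and -0.49 ± 0.12. The last read 905, 711 and 794 in vehicle, 507, 594 and 608 in exercise, 782, 790 and 712 under GW and 737, 853 and 659 in the combination. Exercise arrays lay below those of every other group there, and limma gave an adjusted p of 0.226 against vehicle. Among 18 genes with several probe sets well above background, the median spread between probe sets was 0.093 in exercise, 0.095 under GW and 0.15 in the combination.

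The complexes were set against each other array by array, as a description with no test. Each array was summarised by the median, over the genes of a complex, of log2 signal minus the vehicle mean. In vehicle these medians ran from -0.082 to 0.057 for complex III, from -0.034 to 0.057 for complex IV and from -0.053 to 0.042 for complex V. In exercise they ran from 0.059 to 0.18, from 0.085 to 0.21 and from -0.0059 to 0.17, so complexes III and IV lay just above vehicle and complex V overlapped it. GW arrays overlapped vehicle in all 3 complexes, and combination arrays lay above vehicle for complex IV (0.090 to 0.16) and complex V (0.050 to 0.099) and overlapped it for complex III (0.018 to 0.13). The pooled SD between arrays of a group was 0.063 for complex III, 0.0641 for complex IV and 0.0596 for complex V. Complex IV minus complex V was 0.015, -0.0073 and 0.019 on the vehicle arrays and 0.091, 0.040 and 0.041 on the exercise arrays, without overlap. It was 0.0094, 0.064 and 0.071 on the combination arrays and -0.020, -0.0032 and 0.11 on the GW arrays, both overlapping vehicle. Under quantile normalization the order of complexes IV and V in exercise turned round. The median log2 fold change of complex IV was then 0.015, while that of complex V was at least 0.033 under every setting. Complex III minus complex V was 0.015, -0.014 and -0.029 in vehicle, 0.065, 0.012 and 0.052 in exercise, 0.047, -0.081 and 0.064 in the combination and -0.057, 0.012 and 0.058 under GW, overlapping vehicle in each. Other bright probe sets ran from -0.017 to 0.014 in vehicle, from 0.026 to 0.089 in exercise, from -0.0094 to 0.094 under GW and from 0.035 to 0.067 in the combination.

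**Figure D4:**
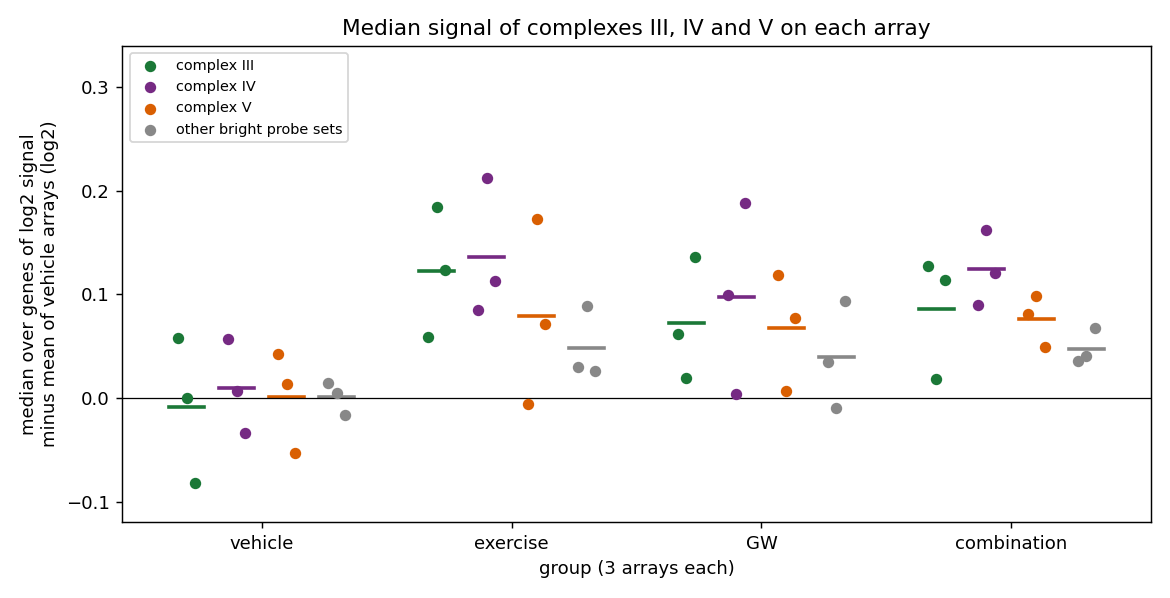
Median over the genes of complex III, IV or V, and over 367 other bright probe sets, of log2 signal minus the mean of the vehicle arrays (vertical axis), for each array of the 4 groups (horizontal axis); points are arrays and lines group means. Exercise and combination arrays lie mostly above the vehicle arrays in all 3 complexes, with the other bright probe sets shifted the same way by less.

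In trained mice, adding the drug gave no common direction. Of the 40 members, 20 were higher and 20 lower in the combination than in exercise. The medians were -0.0092, 0.027 and -0.033 for complexes III, IV and V. Of all probe sets 48.7% were higher, and of the other bright ones 49.0%. By limma 0 were called (0.162% of all probe sets), and 2 were higher (Cox6a1 and Cox8a) and 1 lower (Cox8c) at an unadjusted p of 0.05, where 4.59% of all were higher and 4.59% lower. Arrays lay apart upward for 2 (Cox8a and Atp5g2) and downward for 3 (Uqcrb, Cox8c and Atp5md), against 7.58% and 8.21% of all probe sets. The second probe set of Cox8a overlapped in this comparison. Uqcrb read 10500, 11000 and 12400 in the combination, below its 3 exercise arrays (-0.19 ± 0.10).

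Training in mice on the drug gave 27 positive and 13 negative values, with medians of 0.0026, 0.038 and 0.019 for complexes III, IV and V. Of all probe sets 50.0% were positive, and of the other bright ones 53.1%. By limma 0 members were called, as were 0% of all probe sets, and 2 were higher (Uqcrc2 and Cox8a) and 0 lower at an unadjusted p of 0.05, against 2.76% and 2.99% of all. Arrays lay apart upward for 3, Uqcrc2, Atp5g2 and Atp5o, and downward for 0, against 5.13% and 5.38% of all. Atp5o, the stalk chain that confers oligomycin sensitivity, read 5060, 4960 and 5240 under GW and 5260, 5260 and 5830 in the combination (0.10). Its other probe set went the opposite way, with 447, 548 and 558 under GW and 348, 430 and 404 in the combination, apart downward. The spread between its probe sets (0.49) was the widest of 18 genes in this comparison. The second probe set of Uqcrc2 overlapped here. The extremes were the dim Cox4i2 at 0.52 and Atp5md at -0.36.

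The drug effect in trained mice was below that in sedentary mice for 26 of 40 members and above it for 14. It was above for 48.9% of all probe sets and for 41.1% of the other bright ones. The medians were -0.088, -0.074 and -0.091 for complexes III, IV and V, -0.0081 over all probe sets and -0.037 over other bright ones. By limma 0 members were called, as were 0% of all probe sets, and 0 were higher and 2 lower at an unadjusted p of 0.05, against 3.17% and 3.62% of all. Uqcrc1 had the lowest p. It read 4460, 4240 and 4150 in vehicle, 5640, 4480 and 4970 under GW, 4490, 5000 and 5240 in exercise and 4850, 4430 and 3910 in the combination, so training and drug each came with higher arrays than vehicle and both together overlapped it. The interaction was -0.39 ± 0.14 (adjusted p = 0.707). Cox5a, at 0.23, 0.13 and 0.13 in exercise, GW and combination, gave -0.23 ± 0.10. These values are those of its chosen probe set. The others had lower mean signals in the combination than in vehicle, 3830 against 4000 and 1520 against 1770. The spread between probe sets of Cox5a was the widest of 18 genes under GW (0.28) and in the combination (0.40). Against combination array 1 alone, the interaction of Uqcrc1 was -0.24. All 9 muscle fibre markers were negative too (median -0.22), and their part was not tested. Cyc1, the cytochrome c1 subunit of complex III that falls outside the symbol rule, had -0.31 ± 0.11 (adjusted p = 0.707), with 3620, 3460 and 3480 in vehicle, 3930, 4160 and 4080 in exercise, 3910, 3800 and 4130 under GW and 3860, 3270 and 3890 in the combination.

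Averaged over drug states, training gave positive values for 33 of 40 members, against 50.7% of all probe sets and 62.9% of the other bright ones. By limma 0 members were called (0.0147% of all probe sets). At an unadjusted p of 0.05, Uqcrc2, Cox5a and Atp5g3 (0.18, 0.12 and 0.13) were higher and 0 members lower, against 4.80% and 4.29% of all. With all probe sets of the gene averaged, Cox5a was at -0.0065. The median over the members was 0.070. Averaged over activity, the drug gave positive values for 29 (49.3% of all and 60.5% of the other bright probe sets) and 0 calls (0.317% of all probe sets). Cox8a (0.34), Cox6a1 (0.30), Cox6a2 (0.13) and Cox8b (0.13) were higher and Cox8c (-0.50) was lower at an unadjusted p of 0.05 (4.32% of all were higher and 4.04% lower), all 5 of them oxidase genes. Of these, Cox6a1 was at 0.17 without combination array 3 and at 0.084 with the fat marker covariate. Cox8a was at 0.22 without combination arrays 2 and 3, and Cox8c was at -0.28 without GW array 2. The arrays left out held the most extreme values of these genes, so weaker values without them were fixed by the choice. The median was 0.026, and the lowest adjusted p was 0.454, for Cox8a.

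Genes that work with these complexes were described in the same way. The 33 complex I genes on the array (symbols beginning with Nduf) had medians of 0.053, 0.049 and 0.052 in exercise, GW and combination against vehicle, with 27, 20 and 23 positive and 0 called. Complex II, with 4 genes, had medians of 0.099, 0.044 and 0.10. Cyc1 and the electron carrier Cycs had 0.20 and 0.15 in exercise and 0.16 and 0.13 under GW, and 0 was called. The carriers that feed ATP synthase were listed together with Atpif1, which encodes an inhibitor of the synthase, and these 4 genes had a median of 0.21 in exercise. Of the carriers, Slc25a4, the muscle ADP/ATP carrier, was at 0.21 ± 0.068, Slc25a3, the phosphate carrier, at 0.21 ± 0.089 and Slc25a5 at 0.23 ± 0.17. Slc25a4 read 12000, 11800 and 11700 in vehicle and 13100, 13900 and 14200 in exercise, without overlap. Under GW it read 13900, 12300 and 14400, also above vehicle, and in the combination 12900, 12400 and 13700. Of 23 assembly factors, 17 were measured, with medians of 0.082, 0.057 and 0.024 and 0 called. Of 7 regulators, 6 were tested and 0 called in the 3 comparisons: Ppargc1a, which encodes PGC-1α, gave 0.045, 0.14 and -0.12, and Esrra, which encodes ERRα, gave 0.21, 0.20 and -0.068. The subunits that the mitochondrial genome encodes had 0 of 6 named on the array and were not analysed here.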

How the data were processed

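Quadriceps RNA was measured on 12 single-colour oligonucleotide arrays, 3 per group. The authors deposited 1 linear signal intensity per probe set, which MAS5 produced according to the submitters' processing notes; no MAS5 version is named there. The mean of each array without its lowest and highest 2% of values was 200.1, as global scaling gives. Gene symbols came from the platform's annotation.

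The intensities were log2-transformed with no pseudocount and no further scaling. After removal of 64 control probe sets, 22626 were left. Of these the brighter 60% were tested, 13575 probe sets with a mean signal above 28.4. In R 4.3.3 with limma 3.58.1 1 linear model held the 4 groups and all 12 arrays, leaving 8 residual degrees of freedom, with variances moderated along an intensity trend (median prior 6.84 degrees of freedom). All p-values are two-sided and were adjusted by Benjamini-Hochberg over the whole table, with 0.05 as the threshold. Precision is limited by having 3 arrays in a group, and the procedure was tested on simulated data.

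The members, gene lists and tests were chosen with earlier results of these data known, so no p is given for a score over members or adjusted over a list. In each complex and comparison the genes with the highest and lowest log2 fold change were to be named, with the core subunits and the isoform genes always. Uqcrh, Atp5j2, other probe sets of a gene (such as those of Cox7a2l) and per-array values were described after they were seen. Promoters were read from RefSeq.

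Also tried were normalization by quantiles or cyclic loess, a pseudocount of 10, no filter and the upper 40%, other moderation, array weights, a fit of the compared groups alone, all probe sets of a gene, fat markers as a covariate, array number as a block and leaving out each array.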

Additional observations from a re-analysis of the deposited data

How the results depend on the processing

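Under each of the alternatives, 0 members were called in every comparison, also with each array left out in turn (0 to 0) and with a replicate block for array number, under which 0 members were called in each of the 8 comparisons. Array numbers were not taken as pairs, since deviations of same-numbered arrays had correlations from -0.048 to 0.10 over 18 pairs. The medians against vehicle stayed positive for every complex. Over all settings they ran in exercise from 0.081 to 0.16 for complex III, from 0.015 to 0.15 for complex IV and from 0.033 to 0.11 for complex V. Under GW they ran from 0.0049 to 0.10, from 0.013 to 0.16 and from 0.0048 to 0.078, and in the combination from 0.026 to 0.13, from 0.057 to 0.18 and from 0.022 to 0.11. Quantile normalization took complex IV to 0.015 in exercise and 0.013 under GW, and the members' positive values to 28, 26 and 26 of 40 in exercise, GW and combination. This setting gives all arrays one distribution, in which bright probe sets cannot shift together. The fat marker covariate took complex IV in the combination to 0.057. Leaving out single arrays moved complex III in exercise between 0.084 (without exercise array 2) and 0.16, and complex V under GW between 0.012 (without vehicle array 3) and 0.078. Without combination arrays 2 and 3, a setting chosen after seeing the data, Cox6a1 was at -0.024 against vehicle and -0.074 against exercise. With all probe sets of the gene averaged, the training average of Cox5a was -0.0065. The probe sets of Cox5a other than the chosen one had lower mean signals in the combination than under GW, 3830 against 4330 and 1520 against 1670. In exercise against vehicle their means were 4300 against 4000 and 1670 against 1770.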
